A study of Mus musculus with 24 samples.

Results

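The 10 genes of a signaling route of NK cells are followed here through every group of a mouse RNA-seq series: the activating receptor gene Ncr1, the Fc receptor gene Fcgr3, the ITAM adaptor genes Fcer1g and Cd247, the kinase genes Syk and Zap70, the scaffold and exchange factor genes Lcp2 and Vav1, and the phospholipase genes Plcg1 and Plcg2. They were chosen by symbol for their place in that route, and they are 10 of the 45237 genes in the count table. All 10 were found and all 10 passed the filter on low counts, as did 17097 genes in all.

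The series holds 24 bulk RNA-seq libraries of NK cells sorted from mouse spleen. Polyadenylated RNA was sequenced in single reads, and the table gives the reads assigned to each gene in each library, from 5138651 to 14863500 reads a library. The comparisons ask how NK cells that meet a lymphoma differ over time from those of mice without one, and whether the kind of lymphoma matters.

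All mice were wild-type C57BL/6J. The 4 control libraries came from mice that were not treated. RMA is a T cell lymphoma line that does not stimulate NK cells directly, though the study reports activated NK cells in mice with either line. NK cells were taken on day 2 (early, 3 libraries), day 4 (intermediate, 3 libraries) and day 9 (late, 3 libraries) after intravenous injection of RMA cells. RMA-KR is an RMA derivative in which B2m was knocked out and the NKG2D ligand Rae1-β was added. Per the study, the RMA and RMA-KR cells both express the fluorescent protein ZsGreen. RMA-KR was grown out from a single clone by limiting dilution, so it stands for that clone only. NK cells of mice given RMA-KR were taken on day 2 (early, 3 libraries), day 7 (intermediate, 5 libraries) and day 14 (late, 3 libraries). The labels give no age or sex; the study's methods name female mice 7 to 9 weeks old as its default. The labels number the libraries of a group and do not say whether each came from a mouse of its own; the study counts its groups for these data in mice. The tests measure the spread between libraries. At the intermediate and late stages the models were sampled on different days, so tumor and day cannot be told apart there.

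The cells were stained for NKp46, the product of Ncr1, and for NK1.1, the product of Klrb1c, in the same color, and those with that color were sorted if negative for antigens that include CD3, CD5, TCRα/β and TCRγ/δ. Ncr1 was therefore part of the gate, but a cell with either antigen could be collected, so the gate did not require NKp46.

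NKp46 and the low-affinity IgG receptor CD16, the product of Fcgr3, have no ITAM signaling motif of their own: in mice CD16 depends on the adaptor FcεRIγ (Fcer1g), and NKp46 pairs with FcεRIγ and CD3ζ (Cd247), whose cytoplasmic tails carry ITAMs. Once Src-family kinases phosphorylate these motifs, the kinases Syk and ZAP-70 dock on them and phosphorylate the scaffold SLP-76 (Lcp2), which gathers the exchange factor Vav1 and the phospholipases PLC-γ1 and PLC-γ2. Vav1 drives the actin changes of the killing synapse, and the phospholipases raise calcium, which leads to release of granules and cytokines.

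Of the 24 libraries, 4 stood apart: control 4 and RMA-KR intermediate 3, 4 and 5. Values are CPM, the reads of a gene scaled to a common library size with TMM factors. The summed level of 12 immediate early and stress genes (Fos, Junb, Dusp1 and others) was 1201 CPM in control 4 and 1208, 1307 and 1200.4 CPM in the other 3, against 4228 to 9130.2 CPM in the other 20 libraries. The summed level of 6 genes that mark type 1 innate lymphoid cells was 159.5, 209, 311 and 211 CPM in these 4 and at most 67.6 CPM in the other 20. The intermediate RMA-KR group thus held 3 such libraries and 2 others, and results that involve it or control are also given without these 4 libraries where that moved them. What set them apart was not tested.

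All 24 libraries held the transcripts that define NK cells. The 12 genes of an NK cell identity list (Klrb1c, Klrd1, Klre1, Klrk1, Klri2, Eomes, Tbx21, Itga2, Il2rb, Gzma, Prf1 and Nkg7) summed to between 20303 and 37698 CPM, none was at 0 in any library, and the most abundant, Gzma, ranged from 4445 to 16442 CPM. Of the antigens that the sort excluded, Cd3e was at 0 in 12 libraries and reached at most 5.00 CPM, but Trbc1, which encodes a part of the excluded TCRα/β, stood at 181 to 419 CPM. The 12 genes of the T cell list, which Trbc1 led, summed to 282 to 596 CPM over the 24 libraries, so transcripts of excluded antigens were not absent.

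The members differed widely in level. Between genes levels are compared per kilobase of the gene's median transcript length. That length depends on which transcripts are annotated. For Zap70 it was 1073 bases, while its exons together cover 2992 bases, and for Syk it was 2993 beside 9362 bases. Places in the order and the size of the gaps may differ with another length. In the 4 control libraries Ncr1 was highest at 2258 ± 253 CPM per kb (SD, n = 4), followed by Fcer1g at 1496 ± 317 CPM per kb. A middle tier held Zap70 at 249.97 ± 22.2, Cd247 at 208 ± 24.2, Lcp2 at 197 ± 13.9 and Vav1 at 167 ± 5.27 CPM per kb. Fcgr3 stood at 117 ± 10.5, Plcg2 at 81.9 ± 19.96 and Syk at 58.7 ± 21.4 CPM per kb, and Plcg1 was last at 3.51 ± 2.06 CPM per kb. Neighbours in this order did not overlap in the 4 control libraries except Cd247 with Lcp2 and Plcg2 with Syk, so both receptors' shared adaptor Fcer1g exceeded Cd247, and Zap70 exceeded Syk, on the scale of CPM per kb.

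Each group was compared with control, with the other model at the same stage, and with the early stage of its own model, by the quasi-likelihood test of edgeR over all 17097 genes, and a gene was called at an adjusted p under 0.05. Over all genes 5.91% to 17.2% had an unadjusted p under 0.05 in the 12 comparisons. Comparisons with control share the 4 control libraries and are not independent of each other. In early RMA against control the test called 0 of 10 members and 0% of all genes; 0 members had an unadjusted p under 0.05, and DESeq2 called 0. In early RMA-KR against control it called 0 of 10 members beside 0.0994% of all genes, 1 member had an unadjusted p under 0.05, and DESeq2 called 0. In intermediate RMA it called 0 of 10 members beside 2.35% of all genes (1 at an unadjusted p under 0.05, 0 by DESeq2), and in intermediate RMA-KR 0 of 10 beside 0.0175% (3 at an unadjusted p under 0.05, 0 by DESeq2). In late RMA it called 0 of 10 members beside 2.66% of all genes, with 1 at an unadjusted p under 0.05. In late RMA-KR it called 0 of 10 beside 1.22%, with 2 at an unadjusted p under 0.05. DESeq2 called 1 member in each of these late comparisons, Zap70, beside 1054 of 11897 genes in late RMA and 663 of 16021 in late RMA-KR.

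Between the models, edgeR called 0 of 10 members early, beside 0.339% of all genes, 0 of 10 at the intermediate stage, beside 0.643%, and 0 of 10 late, beside 0%. The members with an unadjusted p under 0.05 numbered 1, 1 and 2 in these comparisons, and DESeq2 called 0 in each. From early to late, edgeR called 1 of 10 members in RMA, Zap70, which is 10% of the members beside 2.87% of all genes. In RMA-KR from early to late it called 0 of 10 beside 0.392% of all genes, 3 members had an unadjusted p under 0.05, and DESeq2 called 0. In the test of whether that course differed between the models it called 0 of 10 members beside 0% of all genes, 1 member had an unadjusted p under 0.05, and DESeq2 called 0.

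The direction of the members was mixed in most comparisons. The median log2 fold change of the 10 members was -0.18 in early RMA against control (all tested genes -0.06), 0.04 in intermediate RMA (-0.29) and 0.01 in late RMA (-0.18). In RMA-KR against control it was -0.09 early (all tested genes 0.00), -0.05 at the intermediate stage (0.01) and -0.29 late (-0.18). The fold change was above 0 for 1, 6 and 5 of the 10 members in early, intermediate and late RMA, and for 4, 4 and 3 of the 10 in early, intermediate and late RMA-KR. With DESeq2 size factors in place of TMM, 3 of the 120 differences of members changed sign, none of them above 0.0536 log2 in size with TMM. Without the 4 libraries that stood apart 12 changed sign, the largest Plcg1 in intermediate RMA-KR against control, from -0.96 to 0.09, and the other 11 from at most 0.21 log2 in size. Without those libraries edgeR again called 1 member from early to late RMA and 0 in each of the other comparisons. Over all genes it then called fewer against control: 265 in place of 401 in intermediate RMA and 301 in place of 455 in late RMA. In early, intermediate and late RMA-KR against control it called 2, 0 and 103 genes in place of 17, 3 and 208. From early to late RMA it called 402 genes in place of 491.

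**Figure D1:**
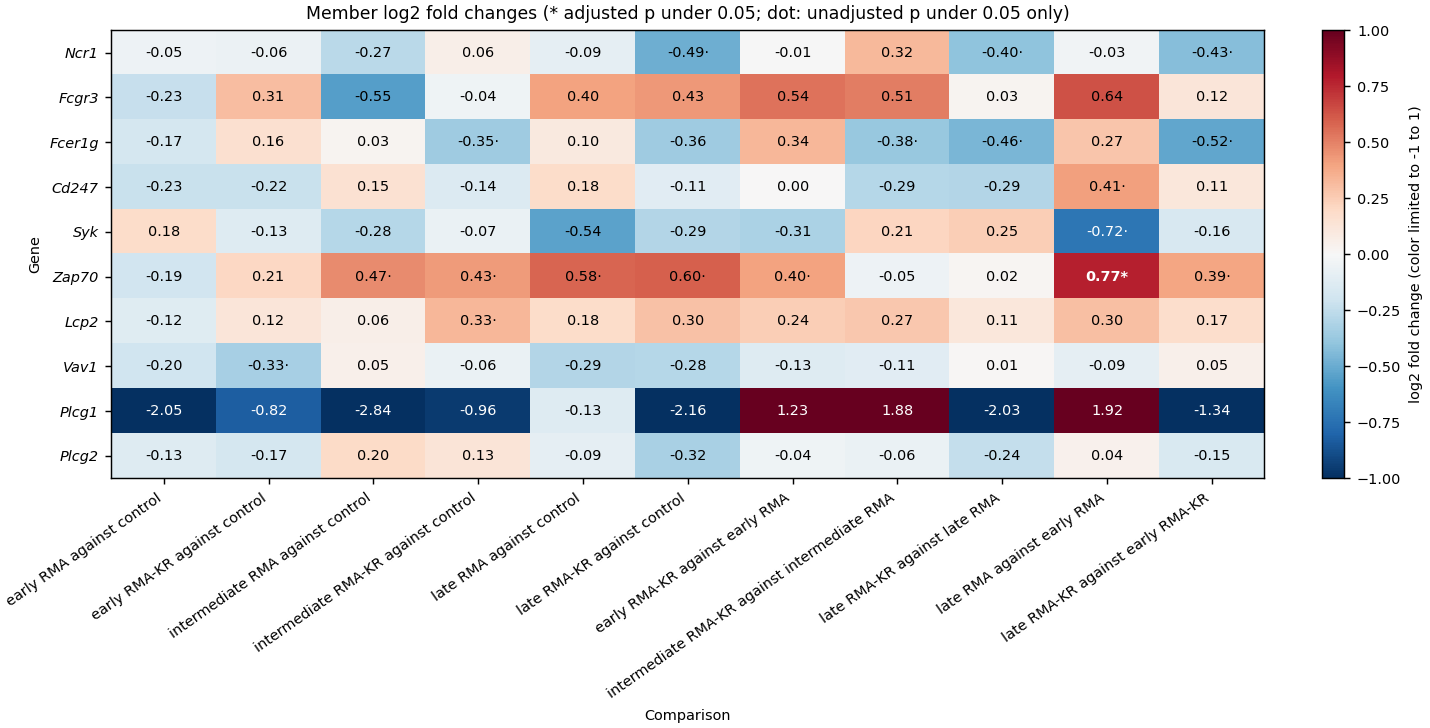
Log2 fold change of each of the 10 members (a line of cells each) in each of the 11 pairwise comparisons (columns), on a color scale limited to -1 to 1, with the value in each cell, a star at an adjusted p under 0.05 and a dot at an unadjusted p under 0.05 only. Zap70 lies above 0 in every comparison with control except early RMA, and the largest values belong to Plcg1, the member with the fewest reads.

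**Figure D2:**
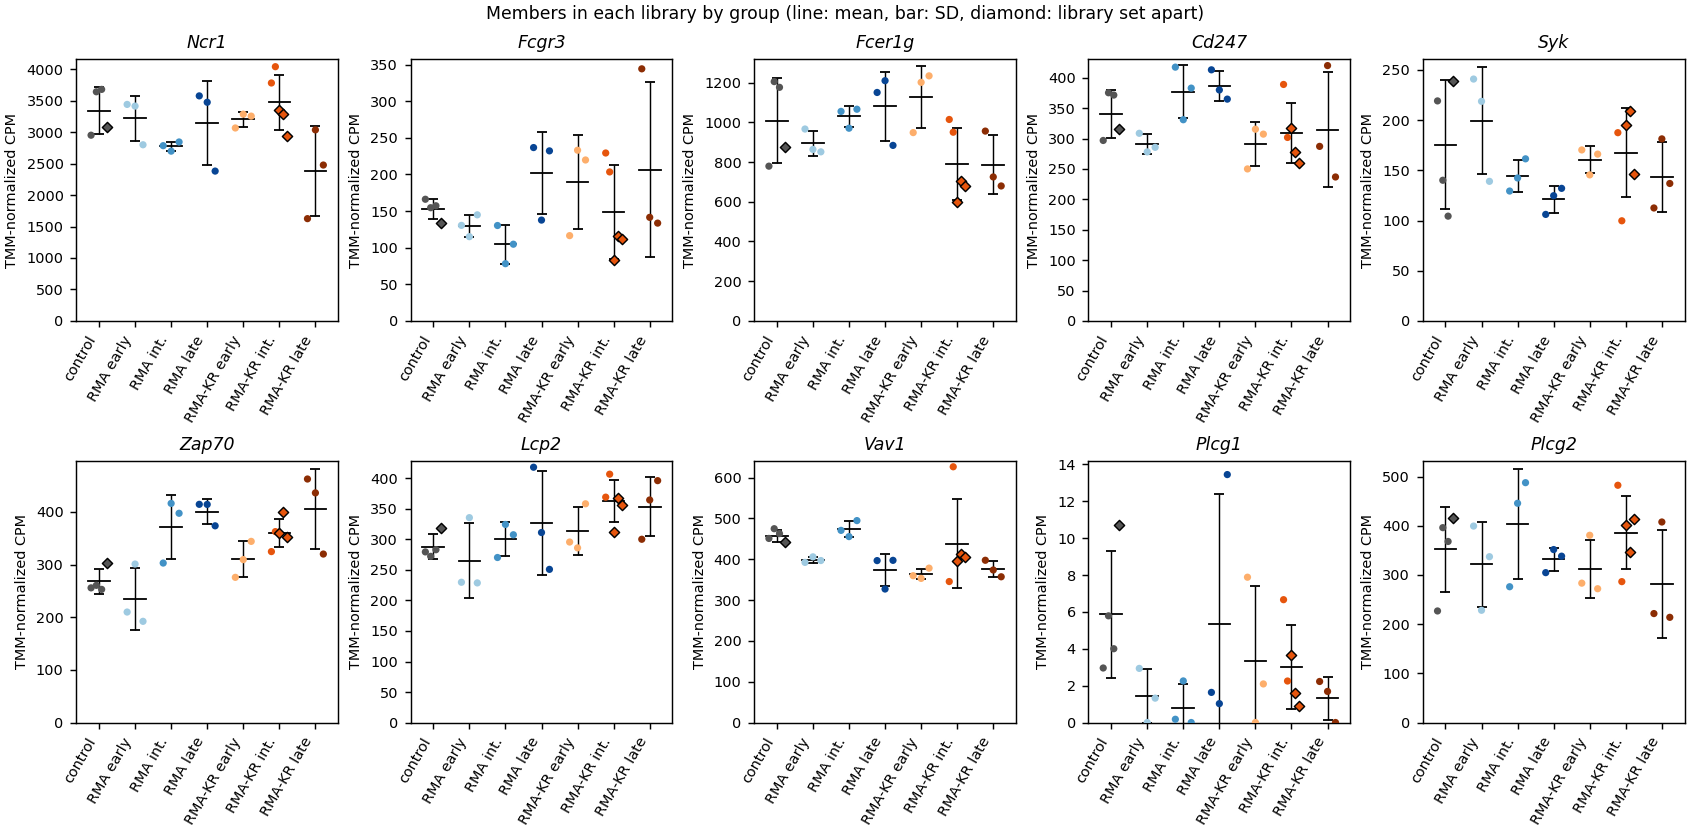
CPM of each member in each library (points), with the mean (line) and SD (bar, drawn down to 0 at most) of each group, for control and the early, intermediate and late stages of RMA and RMA-KR, where diamonds are the 4 libraries that stood apart. Zap70 is higher in all 3 late RMA libraries than in all 3 early RMA libraries, and Ncr1 has its lowest value in a late RMA-KR library.

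Ncr1 (ENSMUSG00000062524, chr7:4337724-4345164) encodes NKp46, an activating receptor that marks NK cells and some other innate lymphoid cells. Coordinates of genes are on mm10. Its promoter is shown because it carries the only match among the 10 members to a Runx motif, and Runx factors act in NK cells. Promoters of 300 bases, 250 before to 50 after the start, were taken from RefSeq (GRCm38.p6); all 10 members matched, with 1 to 3 start sites each. It is written 5′ to 3′ for the first of 2 start sites of Ncr1, chr7:4337465-4337764 on the + strand, with capitals marking the Runx motif TGTGGTT, whose first base lies at -176 from the start.

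Ncr1 promoter: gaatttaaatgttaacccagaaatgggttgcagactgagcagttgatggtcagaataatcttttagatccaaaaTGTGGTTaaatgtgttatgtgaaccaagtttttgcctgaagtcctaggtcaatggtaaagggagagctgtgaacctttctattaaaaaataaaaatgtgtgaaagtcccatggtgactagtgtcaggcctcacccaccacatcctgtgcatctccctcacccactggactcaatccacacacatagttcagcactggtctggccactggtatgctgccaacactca

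Read on both strands, TGTGGTT lay in 5.27% of 32851 mouse promoters of the same length and in 1 of the 10 members. The other motifs searched were the ETS motif CCGGAA (14.9% of promoters, 2 of 10 members), the T-box motif AGGTGTGA (1.28%, 0 of 10) and the AP-1 motif TGAGTCA (5.2%, 0 of 10). A match describes the sequence only.

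Ncr1 stood at 2951, 3641, 3679 and 3086 CPM in the control libraries. In RMA it stood at 3440.2, 3414 and 2799 CPM early, 2785, 2698 and 2843 CPM at the intermediate stage and 3576, 3474 and 2381 CPM late. In RMA-KR it stood at 3066, 3285 and 3254 CPM early, 3781, 4039.8, 3346, 3285 and 2930.4 CPM at the intermediate stage and 1625, 3036 and 2477 CPM late. The lowest value of all 24 libraries was late RMA-KR 1, while late RMA-KR 2 lay within the range of control. All 3 intermediate RMA libraries lay below every control library, and no other group in either model was wholly outside the control range. By mean the groups ran from intermediate RMA-KR at 3476 ± 436 (SD, n = 5) through control at 3339 ± 375 (SD, n = 4), early RMA at 3218 ± 363 (SD, n = 3), early RMA-KR at 3202 ± 119 (SD, n = 3), late RMA at 3144 ± 663 (SD, n = 3) and intermediate RMA at 2775 ± 73.3 (SD, n = 3) down to late RMA-KR at 2379 ± 710.4 (SD, n = 3) CPM. Every group overlapped the next in that order.

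The lowest fold change of Ncr1 was in late RMA-KR against control, at -0.49 log2 (SE 0.17, adjusted p 0.210), with 3 of 3 libraries below the control mean, and it did not pass the test. Without late RMA-KR 1 the log2 fold change was -0.29 (adjusted p 0.466), and without the 4 libraries that stood apart it was -0.48 (adjusted p 0.324). Over 15 other settings of the processing it ran from -0.68 to -0.29, with adjusted p from 0.0302 to 0.471, and 1 of them, a filter that kept every gene with a read, called it. Late RMA-KR stood at -0.40 log2 against late RMA (adjusted p 0.655, 3 of 3 below the late RMA mean) and at -0.43 against early RMA-KR (adjusted p 0.292, 3 of 3 below and no overlap). Intermediate RMA stood at -0.27 log2 against control (adjusted p 0.421, 3 of 3 below and no overlap), and intermediate RMA-KR at 0.32 against intermediate RMA (adjusted p 0.354, 5 of 5 above and no overlap), or 0.50 without the libraries that stood apart (adjusted p 0.456; 0.261 to 0.585 over 16 settings). In bulk libraries fewer cells with a transcript and less of it in each cell cannot be told apart. The other antigen of the gate, Klrb1c, was not called in any comparison by edgeR either. Its lowest log2 fold changes against control were -0.49 in intermediate RMA (SE 0.17, adjusted p 0.177) and -0.39 in late RMA-KR (SE 0.17, adjusted p 0.332).

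Fcgr3 (ENSMUSG00000059498, chr1:171051174-171064935) encodes CD16, through which NK cells bind antibody-coated targets. It stood at 166, 155, 157 and 134 CPM in the control libraries. In RMA it stood at 130.5, 115 and 145 CPM early, 130.3, 78.2 and 105 CPM at the intermediate stage and 237, 138 and 232 CPM late. In RMA-KR it stood at 116, 233 and 219.8 CPM early, 229, 203, 82.8, 115 and 112 CPM at the intermediate stage and 344, 141 and 134 CPM late. The libraries of control and those of early RMA each spanned a narrow range, and the other tumor groups were wider: late RMA-KR 1 was far above the other 2 libraries of its group, and the intermediate RMA-KR group split into 2 high libraries and the 3 that stood apart. Intermediate RMA was the only group wholly below control, at -0.55 log2 (SE 0.35, adjusted p 0.419, 3 of 3 below), and at -0.59 without the libraries that stood apart.

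Late RMA and late RMA-KR stood at 0.40 and 0.43 log2 against control (adjusted p 0.667 and 0.581, 2 of 3 and 1 of 3 libraries above the control mean). Without late RMA-KR 1 the latter was -0.16 log2. Intermediate RMA-KR stood at -0.04 log2 against control with all libraries and at 0.46 without those that stood apart. Intermediate RMA-KR stood at 0.51 log2 against intermediate RMA (adjusted p 0.475, 4 of 5 above the intermediate RMA mean) and at 1.05 without the libraries that stood apart (adjusted p 0.317; 0.317 to 0.739 over 16 settings). Late RMA-KR 1, the library highest in Fcgr3, was also the highest in the summed level of 12 macrophage and monocyte genes, 79.1 CPM. The sum was 70.4 and 44.2 CPM in late RMA-KR 2 and 3 and 8.74 to 18.7 CPM in control. In late RMA it was 36.7, 34.2 and 53.1 CPM, also above every control library. The most abundant gene of the list was Cd68, at most 78.0 CPM, and Adgre1 and C1qa were at 0 in 16 and 22 of the 24 libraries. The part of such cells in the Fcgr3 values was not tested.

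Of 8 other Fc receptor genes, 3 passed the filter on low counts, and edgeR called 0 of them in any comparison, as did DESeq2; at most 1 of the 3 had an unadjusted p under 0.05 in a comparison. Fcgr2b, the inhibitory receptor, was the most abundant at 21.3 to 138 CPM, and the summed level of the 8 genes was 23.5 to 142 CPM. Fcgr1, Fcgr4, Fcer1a, Ms4a2 and Fcmr were at 0 in 22, 19, 23, 18 and 19 of the 24 libraries. In late RMA-KR against control Fcgr2b was the highest of the 3 tested at 0.08 log2 (SE 0.35, adjusted p 0.953), while Fcer2a stood at 0 CPM there against 0.653 CPM in control. In late RMA Fcer2a was lowest, at 0.134 CPM, and Fcgrt highest, at 1.44 CPM against 0.388 CPM in control. Of the 50-base stretches of Fcgr3 transcripts, 9.58% were also found in Fcgr2b, where a read cannot be placed on 1 gene.

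Fcer1g (ENSMUSG00000058715, chr1:171229572-171234365) encodes the FcεRIγ adaptor used by both receptors. Its promoter, chr1:171234300-171234599 on the - strand, is shown because it is 1 of 2 members with the ETS motif CCGGAA. Capitals mark the motif, which reads TTCCGG on the printed strand, with its first base at -71 from the start.

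Fcer1g promoter: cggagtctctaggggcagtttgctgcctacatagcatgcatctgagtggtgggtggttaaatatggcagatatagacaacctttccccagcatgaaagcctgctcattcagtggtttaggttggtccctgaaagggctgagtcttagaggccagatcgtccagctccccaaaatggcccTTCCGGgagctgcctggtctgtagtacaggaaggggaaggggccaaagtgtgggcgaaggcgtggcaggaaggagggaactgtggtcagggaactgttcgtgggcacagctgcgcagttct

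Fcer1g stood at 779, 1205, 1176 and 874 CPM in the control libraries. In RMA it stood at 966, 864 and 851 CPM early, 1055, 970.3 and 1066 CPM at the intermediate stage and 1150.2, 1209.5 and 884 CPM late. In RMA-KR it stood at 948, 1201 and 1234 CPM early, 1014, 950.1, 601, 704 and 682 CPM at the intermediate stage and 956, 725 and 679 CPM late. Control 1 and control 4 were low and control 2 and 3 high, so that every tumor group overlapped control. The lowest values of the series lay in the 3 intermediate RMA-KR libraries that stood apart and in late RMA-KR 2 and 3.

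Intermediate RMA-KR stood at -0.35 log2 against control (adjusted p 0.827, 4 of 5 below the control mean), and at -0.08 without the 4 libraries that stood apart (adjusted p 0.996; 0.477 to 1 over 17 settings). In late RMA-KR Fcer1g stood at -0.46 log2 against late RMA (adjusted p 0.655, 3 of 3 below) and at -0.52 against early RMA-KR (SE 0.20, adjusted p 0.270, 3 of 3 below), neither past the test. From early to late Fcer1g stood at 0.27 log2 in RMA and at -0.52 in RMA-KR, a difference between the models of -0.79 (SE 0.28, adjusted p 0.394) that was the only one among the members with an unadjusted p under 0.05.

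Cd247 (ENSMUSG00000005763, chr1:165788681-165877277) encodes CD3ζ, the other ITAM adaptor of NKp46. Cd247 stood at 339.9 ± 39.5 (SD, n = 4) CPM in control, 291 ± 15.9 in early RMA, 377 ± 43.6 in intermediate RMA and 386 ± 24.7 in late RMA (n = 3 each). In RMA-KR the means of Cd247 were 291 ± 35.6 CPM early (n = 3), 309 ± 49.9 at the intermediate stage (n = 5) and 315 ± 94.7 late (n = 3). All groups overlapped control. Late RMA stood at 0.41 log2 against early RMA (SE 0.18, adjusted p 0.258), with 3 of 3 late libraries above every early one, and it did not pass the test. In the GENCODE annotation 56.4% of the exon bases of Cd247 overlap exons of Pou2f1 on the other strand and 3.87% those of Gm16565 on the same strand. Whether the authors' counts used the strand is not stated, so how reads there were assigned is not known.

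Syk (ENSMUSG00000021457, chr13:52583173-52648792) encodes a kinase that docks on phosphorylated ITAMs. Syk stood at 176 ± 63.9 (SD, n = 4) CPM in control, 199.6 ± 53.6 in early RMA, 144 ± 16.1 in intermediate RMA and 121 ± 13.4 in late RMA (n = 3 each). In RMA-KR the means of Syk were 161 ± 13.3 CPM early (n = 3), 168 ± 44.5 at the intermediate stage (n = 5) and 144 ± 34.9 late (n = 3). The control libraries themselves spread from 104 to 239 CPM, and every tumor group overlapped them. Syk stood lowest in late RMA, at 106, 125 and 132 CPM in its 3 libraries, against 241, 219 and 139 CPM in early RMA, without overlap. That is -0.72 log2 (SE 0.29, adjusted p 0.193, 3 of 3 below), which did not pass the test and ran from -0.93 to -0.56 over 14 settings. Against control late RMA stood at -0.54 (adjusted p 0.375, 3 of 3 below the control mean).

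Zap70 (ENSMUSG00000026117, chr1:36761798-36782818) encodes the second ITAM kinase, the only member called in any comparison. The promoter of the first of its 3 start sites, chr1:36761548-36761847 on the + strand, is shown for that reason and because it holds the ETS motif CCGGAA, in capitals, with its first base at -89 from the start. The other start sites hold none of the motifs.

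Zap70 promoter: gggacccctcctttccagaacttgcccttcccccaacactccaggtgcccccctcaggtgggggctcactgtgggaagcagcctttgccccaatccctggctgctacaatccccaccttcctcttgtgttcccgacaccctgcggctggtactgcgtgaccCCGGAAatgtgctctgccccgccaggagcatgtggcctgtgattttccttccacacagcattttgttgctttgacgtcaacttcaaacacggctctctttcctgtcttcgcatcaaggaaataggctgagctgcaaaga

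Zap70 stood at 256, 261, 253 and 304 CPM in the control libraries. In RMA it stood at 209.9, 301 and 192 CPM early, 303, 416 and 397 CPM at the intermediate stage and 414, 414 and 374 CPM late. In RMA-KR it stood at 276, 309 and 344 CPM early, 325, 363, 361, 400.3 and 353 CPM at the intermediate stage and 463, 436 and 320.03 CPM late. All 3 late RMA, all 3 late RMA-KR and all 5 intermediate RMA-KR libraries lay above every control library, and intermediate RMA 1 was the only intermediate library within the control range. The low end of the series was early RMA, where 2 of 3 libraries lay below every control library. By mean the groups ran from late RMA-KR at 406 ± 75.8 (SD, n = 3) and late RMA at 401 ± 23.5 (SD, n = 3) through intermediate RMA at 372 ± 60.7 (SD, n = 3), intermediate RMA-KR at 360.3 ± 27.1 (SD, n = 5) and early RMA-KR at 309.8 ± 34.2 (SD, n = 3) to control at 268 ± 23.8 (SD, n = 4) and early RMA at 234 ± 58.4 (SD, n = 3) CPM, and each group overlapped the next.

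Zap70 rose from early to late RMA by 0.77 log2 (SE 0.17, 1.71-fold, adjusted p 0.0171), with 3 of 3 late libraries above every early one. Over 14 other settings of the processing the log2 fold change ran from 0.65 to 1.00 and the adjusted p from 0.00394 to 0.174, and 8 of the 14 called it. The call was lost when any of 4 libraries was left out: the log2 fold change was 0.71 (adjusted p 0.121) without early RMA 1, 0.65 (adjusted p 0.0687) without early RMA 3, 0.81 (adjusted p 0.0645) without late RMA 1 and 0.75 (adjusted p 0.0978) without late RMA 2. It was also lost with no filter on low counts, at 0.80 (adjusted p 0.0606), and when only the 6 libraries compared were fitted, at 0.74 (adjusted p 0.174). Without the 4 libraries that stood apart, none of which is in this comparison but which share its estimate of spread, it was 0.73 (adjusted p 0.0368). A rise of under 2-fold lies below the 2-fold threshold that the study used beside the adjusted p.

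Against control Zap70 stood at 0.58 log2 in late RMA (SE 0.16, adjusted p 0.0536, 3 of 3 above and no overlap) and at 0.60 in late RMA-KR (SE 0.16, adjusted p 0.0711, 3 of 3 above and no overlap), both short of the threshold. Of 15 other settings, 5 called the former, with adjusted p from 0.0128 to 0.317, and 4 the latter, with adjusted p from 0.0110 to 0.369; DESeq2 with its default settings gave 0.57 (adjusted p 0.0128) in late RMA and 0.61 (adjusted p 0.0125) in late RMA-KR. In edgeR either value passed the test when 1 library was left out, at 0.67 (adjusted p 0.0489) without late RMA 3 and 0.79 (adjusted p 0.0252) without late RMA-KR 3. Without the 4 libraries that stood apart they were 0.65 (adjusted p 0.0751) and 0.70 (adjusted p 0.0811). At the intermediate stage Zap70 stood at 0.47 log2 in RMA (adjusted p 0.151, 3 of 3 above the control mean) and 0.43 in RMA-KR (adjusted p 0.675, 5 of 5 above and no overlap). Late RMA-KR and late RMA differed by 0.02 log2 (adjusted p 1, 2 of 3 above). From early to late RMA-KR the value was 0.39 log2 (adjusted p 0.306, 3 of 3 above), and the difference between the models in that course was -0.38 (SE 0.24, adjusted p 0.613), so the rise in RMA was not shown to differ from the course in RMA-KR.

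Other levels moved with Zap70 between early and late RMA. ZAP-70 is also the ITAM kinase of T cells, so the T cell list is given whole: its 12 genes, 7 of them shared with other lists, summed to 305, 455 and 324 CPM in early RMA and 596, 504 and 468 CPM in late RMA. Its most abundant gene was Trbc1, at 181 to 419 CPM over the 24 libraries. Cd3e, which defines T cells, was between 0 and 0.558 CPM in late RMA, and Cd4 and Cd8a were at 0 in 17 and 18 of the 24 libraries. Of the 9 tested, edgeR called 1, Trbc2, higher by 0.74 log2 (adjusted p 0.0323), at 113 to 170.2 CPM in late and 75.1 to 90.1 CPM in early RMA, and 4 of 14 other settings called it (adjusted p 0.00372 to 0.335). Cd3g was not called (adjusted p 0.401) and stood at 14.3 to 18.2 CPM in late RMA against 0.801 to 6.87 CPM in early RMA. The summed level of NK cell identity genes was 32490.5 to 37698 CPM in late RMA against 26446 to 28414 CPM in early RMA, and that of immediate early and stress genes 4228 to 5464 against 6017 to 8080.4 CPM, both without overlap. The former sum rests on a few abundant genes: 6 of the 12 had a log2 fold change above 0, their median was 0.01, Gzma stood at 0.79 log2 (adjusted p 0.201), and edgeR called 1, Eomes, lower, at -0.79 log2 (adjusted p 0.0377), with 249 to 368 CPM in early and 173 to 192 CPM in late RMA. Of 14 other settings 6 called it (adjusted p 0.00470 to 0.227). The 12 B cell genes summed to 218 to 284 CPM in early RMA and 340 to 392 CPM in late RMA, also without overlap. The part of all these levels in the Zap70 values was not tested.

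Lcp2 (ENSMUSG00000002699, chr11:34046920-34092295) encodes SLP-76, the scaffold on which the kinases' targets meet. Lcp2 stood at 288 ± 20.3 (SD, n = 4) CPM in control, 265 ± 61.4 in early RMA, 301 ± 27.7 in intermediate RMA and 327 ± 84.8 in late RMA (n = 3 each). In RMA-KR the means of Lcp2 were 314 ± 39.3 CPM early (n = 3), 363 ± 34.1 at the intermediate stage (n = 5) and 354 ± 49.0 late (n = 3). All groups overlapped control. Its highest fold change against control was 0.33 log2 in intermediate RMA-KR (adjusted p 0.814, 5 of 5 above the control mean) and its lowest -0.12 in early RMA (adjusted p 0.931, 2 of 3 below). In the annotation 6.32% of its exon bases overlap 4930469K13Rik on the other strand.

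Vav1 (ENSMUSG00000034116, chr17:57279100-57328031) encodes the guanine nucleotide exchange factor that couples the scaffold to the actin skeleton. Vav1 stood at 451, 475, 463 and 441 CPM in control, at 392, 406 and 397 CPM in early RMA and at 397, 327 and 397 CPM in late RMA. It stood at 359.7, 353 and 378 CPM in early RMA-KR and 397, 374 and 357 CPM in late RMA-KR. These 4 tumor groups each lay wholly below the control range, which was the narrowest of the members relative to its mean. At the intermediate stage the values were 471, 455 and 495 CPM in RMA and 345, 627, 395, 414 and 406 CPM in RMA-KR, and both groups overlapped control, the latter with the highest value of the series in intermediate RMA-KR 2. The log2 fold changes against control were -0.20 in early RMA (adjusted p 0.796, 3 of 3 below), -0.33 in early RMA-KR (adjusted p 0.554, 3 of 3 below), -0.29 in late RMA (adjusted p 0.385, 3 of 3 below) and -0.28 in late RMA-KR (adjusted p 0.374, 3 of 3 below). None passed the test. Without the libraries that stood apart they were -0.17, -0.32, -0.30 and -0.26. These comparisons share the 4 control libraries, so their shared direction is not 4 separate observations.

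Plcg1 (ENSMUSG00000016933, chr2:160731300-160775760) and Plcg2 (ENSMUSG00000034330, chr8:117498291-117635142) encode the phospholipases that produce the calcium signal. Plcg1 was close to the limit of detection, with 0 to 128 reads a library and 0 reads in 4 libraries. It stood at 2.96, 5.79, 4.00 and 10.7 CPM in control and between 0 and 13.5 CPM over the 24 libraries. The highest was late RMA 3 and the next control 4. Its biological coefficient of variation was 1.29, against 0.163 to 0.319 for the other 9 members. Its log2 fold changes against control were -2.05, -2.84 and -0.13 in early, intermediate and late RMA and -0.82, -0.96 and -2.16 in RMA-KR, with SEs from 1.36 to 1.73. The late RMA value was -2.09 without late RMA 3 and 0.36 without the libraries that stood apart, and the intermediate RMA-KR value 0.09 without those. No difference in Plcg1 passed the test, and with few reads and this spread between libraries its values show neither a change nor its absence. Of its exon bases, 4.82% overlap Zhx3 and 3.16% Gm27206, on the other strand.

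Plcg2 stood at 352 ± 85.8 (SD, n = 4) CPM in control, 322 ± 86.6 in early RMA, 403 ± 112 in intermediate RMA and 331 ± 24.2 in late RMA (n = 3 each). In RMA-KR the means of Plcg2 were 312 ± 59.7 CPM early (n = 3), 386 ± 73.7 at the intermediate stage (n = 5) and 281 ± 109.7 late (n = 3). All groups overlapped control, and control 1 was the lowest of its group. Against control the log2 fold changes of Plcg2 ran from -0.32 in late RMA-KR (adjusted p 0.585, 2 of 3 below the control mean) to 0.20 in intermediate RMA (adjusted p 0.759, 2 of 3 above). On the scale of CPM per kb Plcg2 exceeded Plcg1 in all 24 libraries.

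Members of like role were also compared within a library, as the log2 ratio of CPM plus 1, so that the scaling of the library nearly cancels. The exact permutation tests over libraries, 2-sided, numbered 27, for 3 ratios in 6 comparisons with control and 3 between the models, and 0 passed an adjusted p under 0.05. The lowest adjusted p was 0.2204. With 4 libraries against 3 the smallest p the permutations can give is 0.0286, with 3 against 3 it is 0.1, with 5 against 4 it is 0.00794 and with 5 against 3 0.0179. Adjusted over 27 tests, none of these could pass by itself, however clear the difference. That 0 passed therefore does not show that the ratios were unchanged.

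The log2 ratio of Syk to Zap70 was -0.22, -0.89, -1.27 and -0.34 in the control libraries and -1.96, -1.72 and -1.49 in late RMA. All 3 late RMA libraries lay below every control library, with means of -1.72 ± 0.23 and -0.68 ± 0.49, a difference of -1.04 (exact permutation p 0.0571, adjusted p 0.2204) that ran from -1.24 to -0.89 with each library left out. Early RMA-KR lay below early RMA without overlap, by a difference of -0.70 (exact permutation p 0.1, the smallest possible, adjusted p 0.270). The ratio of Fcer1g to Cd247 was 1.92, 1.93 and 2.00 in early RMA-KR against 1.39, 1.68, 1.66 and 1.47 in control, without overlap (difference 0.40, exact permutation p 0.0286, the smallest possible, adjusted p 0.2204), and the difference ran from 0.35 to 0.44 with each library left out. Early RMA-KR also lay above early RMA in this ratio without overlap (difference 0.33, exact permutation p 0.1, the smallest possible, adjusted p 0.270). The ratio of Plcg2 to Plcg1 lay above control without overlap in early RMA (difference 1.46, exact permutation p 0.0286, adjusted p 0.2204) and intermediate RMA (difference 2.201, exact permutation p 0.0286, adjusted p 0.2204), and it rests on the few reads of Plcg1. With a pseudocount of 5 in place of 1 these differences were 0.61 and 1.06, so their size depends on the pseudocount.

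**Figure D3:**
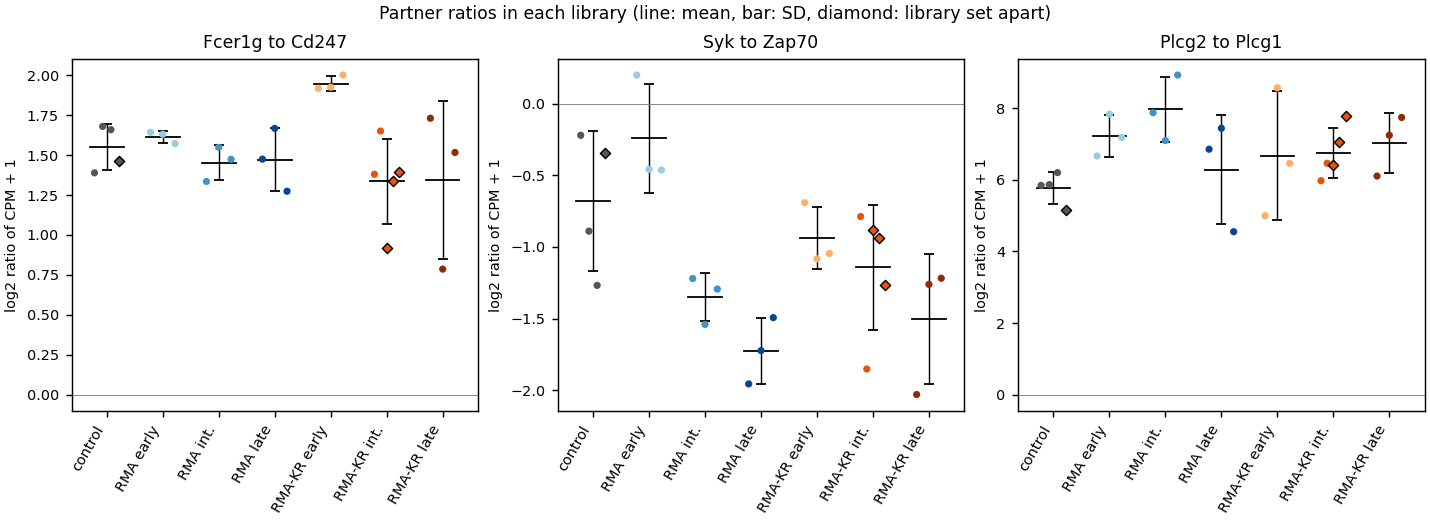
Log2 ratio of CPM plus 1 of Fcer1g to Cd247, Syk to Zap70 and Plcg2 to Plcg1 in each library (points) by group, with mean (line) and SD (bar), where diamonds are the 4 libraries that stood apart. The 3 late RMA libraries lie below all 4 control libraries in Syk to Zap70, and the 3 early RMA-KR libraries above them in Fcer1g to Cd247.

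Across the 24 libraries the members varied largely apart from each other. Of 45 pairs, 27 had a Pearson r of log2 CPM above 0, the median r was 0.0569, and 1 pair exceeded 0.5. The libraries span all 7 groups, so these values describe shared variation between groups as well as within them. The highest pair was Zap70 with Lcp2 (r 0.62, rho 0.55, n = 24), whose r was 0.40 without the 2 libraries farthest from the median and 0.61 in the 20 libraries without those that stood apart. The lowest was Fcer1g with Syk (r -0.41, rho -0.39, n = 24), at -0.47 and -0.33 in the same reductions. Leaving out the 4 libraries changed the sign of r for 4 of the 45 pairs.

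Among all 17097 tested genes, the gene whose log2 CPM ran most like that of Ncr1 over the 24 libraries was Lat (r 0.76, rho 0.62), with an r of 0.51 without the 2 farthest libraries and 0.78 in the 20 libraries that did not stand apart. Acyp1 followed (r 0.75, rho 0.74, then 0.68 and 0.78), and then Arl4c, Ptgs1 and Ly6c2 with r of 0.72, 0.72 and 0.71. Without the 2 farthest libraries these last 3 had r of 0.43, 0.56 and 0.47, so the likeness to Ncr1 rests in part on 2 libraries. For Zap70 the most alike were Gm4617 (r 0.86, rho 0.87) and Eno1 (r 0.85, rho 0.84), which kept r of 0.84 and 0.79 without the farthest libraries. For Fcer1g they were Cd2 (r 0.88, rho 0.79) and Hsd11b1 (r 0.83, rho 0.83), and for Fcgr3 Klhl6 (r 0.87, rho 0.88) and Tmem234 (r 0.84, rho 0.80), and these 4 had r of 0.74 to 0.83 without the 2 farthest libraries.

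The remaining members had these nearest genes by r over the 24 libraries. For Cd247 Nsfl1c is given, at 0.82. They were for Syk Marf1 at 0.79 and Stk11 at 0.78, and for Lcp2 Arhgap1 at 0.73 and Arrb2 at 0.72. For Vav1 they were Gm20036 at 0.72 and Tmc8 at 0.66, for Plcg2 Carnmt1 at 0.72 and Tmem201 at 0.71, and for Plcg1 Abca3 at 0.83 and Ccdc157 at 0.80. Their rho lay between 0.70 and 0.80, and their r without the 2 farthest libraries between 0.58 and 0.83. Each was picked as the highest or next highest of 17097 values, and those of Ncr1 as the highest 5, so all are high by selection.

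The rest of the route was read from 4 lists of adaptors and scaffolds, kinases, GTPase and actin genes, and calcium, MAPK and NF-kB genes, of which 78 genes were tested. Against control, edgeR called 0 of 78 in early RMA (6 at an unadjusted p under 0.05, 1 by DESeq2), 1 in intermediate RMA, lower (3 by DESeq2, 1 higher and 2 lower), and 2 in late RMA, both lower (7 by DESeq2, 3 higher and 4 lower). With no filter on low counts the calls were 2 in intermediate RMA, both higher, and 4 in late RMA, 3 higher and 1 lower. Without the 4 libraries that stood apart they were 0 in intermediate RMA and 1 in late RMA, Sh2d2a, higher, so the direction of the calls in RMA depended on the processing. In RMA-KR it called 0 of 78 early (18 at an unadjusted p under 0.05, 1 by DESeq2), 0 at the intermediate stage (6 at an unadjusted p under 0.05, 1 by DESeq2) and 3 late, 2 higher and 1 lower (7 by DESeq2, 4 higher and 3 lower; 1 without the libraries that stood apart, Sh2d2a, higher). Between the models it called 0 of 78 at each stage, while 17, 11 and 9 had an unadjusted p under 0.05 and DESeq2 called 6, 2 and 0 early, intermediate and late. From early to late it called 2 of 78 in RMA, 1 in each direction (6 by DESeq2, 2 higher and 4 lower), and 0 in RMA-KR (16 at an unadjusted p under 0.05, 3 by DESeq2), and 0 differed between the models in that course (18 at an unadjusted p under 0.05, 0 by DESeq2). Against control the share of the 78 with an unadjusted p under 0.05 was 7.69% (all genes 7.04%) early, 23.1% (all genes 15.9%) at the intermediate stage and 20.5% (all genes 14%) late in RMA, and 23.1% (all genes 8.71%), 7.69% (all genes 5.91%) and 20.5% (all genes 14.2%) in RMA-KR. Between the models it was 21.8% (all genes 12.3%), 14.1% (all genes 14.2%) and 11.5% (all genes 7.31%), from early to late it was 23.1% (all genes 17.2%) in RMA and 20.5% (all genes 15%) in RMA-KR, and for the difference in that course 23.1% (all genes 10.4%). Of the 78, edgeR called 1.28% (all genes 2.35%) in intermediate RMA, 2.56% (all genes 2.66%) in late RMA and 3.85% (all genes 1.22%) in late RMA-KR. From early to late RMA it called 2.56% (all genes 2.87%). Over all genes DESeq2 called 955 of 16021 in intermediate RMA, 1054 of 11897 in late RMA and 663 of 16021 in late RMA-KR against control. Whether the shares differ was not tested. In the other comparisons with DESeq2 calls among the 78, its totals over all genes were these. Against control they were 76 of 17675 in early RMA, 212 of 13583 in early RMA-KR and 41 of 11026 in intermediate RMA-KR. Between the models they were 437 of 13583 early and 444 of 16845 at the intermediate stage. From early to late they were 1362 of 14393 in RMA and 609 of 15211 in RMA-KR. The median log2 fold change of the 78 was -0.18 in late RMA against control and -0.05 in late RMA-KR, beside -0.18 and -0.18 over all tested genes.

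By list, the medians in late RMA against control were -0.06 for 21 adaptors and scaffolds, -0.14 for 20 kinases, -0.07 for 13 GTPase and actin genes and -0.27 for 24 calcium, MAPK and NF-kB genes. In late RMA-KR against control they were -0.04, 0.10, -0.12 and -0.06 in the same order. The median of these 4 lists farthest from 0 in a pairwise comparison was that of the kinases in late RMA-KR against late RMA, 0.32, with 15 of 20 above 0, beside -0.06 over all tested genes; 0 of the 20 were called by edgeR or DESeq2 there and 1 had an unadjusted p under 0.05.

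**Figure D4:**
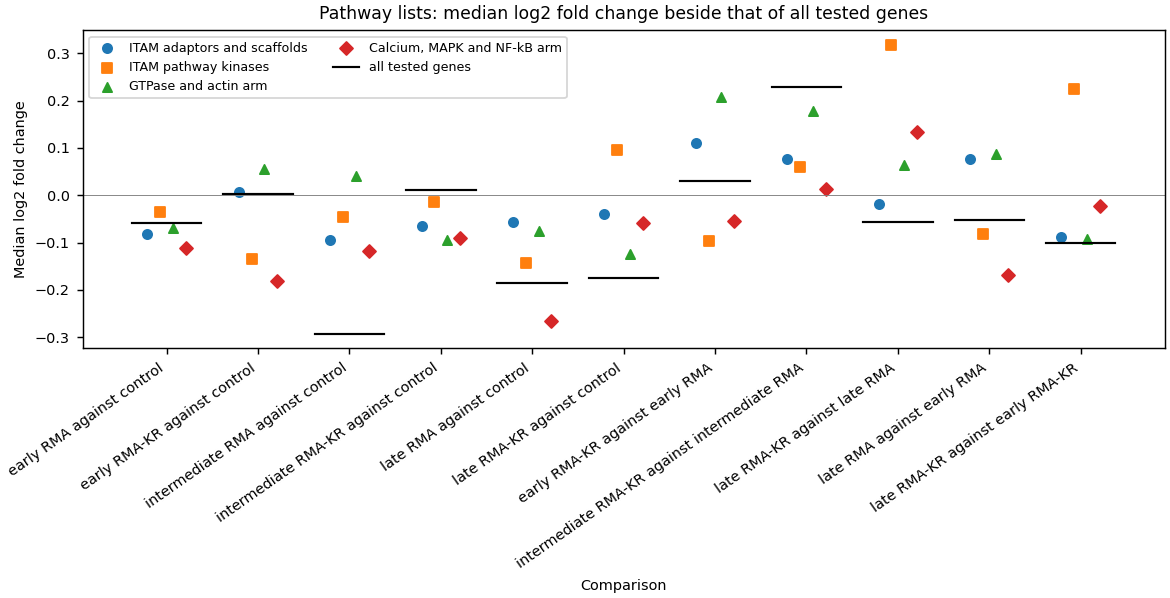
Median log2 fold change of the tested genes of each of the 4 pathway lists (symbols) in each of the 11 pairwise comparisons, with the median of all tested genes (black lines). The list medians lie on both sides of 0, and the highest is that of the kinases in late RMA-KR against late RMA, 0.32 log2.

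Sh2d2a, which encodes the T cell specific adaptor TSAd, stood at 538, 426, 540.5 and 670.1 CPM in control and 1842, 879 and 1221 CPM in late RMA-KR. All 3 late RMA-KR libraries lay above every control library, and it rose by 1.27 log2 (SE 0.20, adjusted p 0.00200). Of 15 other settings 14 called it, at 0.94 to 1.53 log2 and adjusted p from 7.84e-10 to 0.0515, and each of the 7 that left out a library did. The 1 that did not was the fit of only the groups compared, at 1.28 log2 (adjusted p 0.0515). Map4k1, a kinase that dampens the scaffold SLP-76, stood at 63.9, 66.0, 39.6 and 65.0 CPM in control and 146, 139 and 157 CPM in late RMA-KR. It rose by 1.33 log2 (SE 0.31, adjusted p 0.0312, 3 of 3 above the control mean), and 6 of 15 settings called it (adjusted p 0.00286 to 0.120). The call was lost without the 4 libraries that stood apart, at 1.42 log2 (adjusted p 0.0669), and with the replicate number as a block, at 1.35 log2 (adjusted p 0.0502). Leaving out any 1 of the 7 libraries compared also lost it, at 1.17 to 1.40 log2 (adjusted p 0.0509 to 0.120). Some sums over the marker lists of other cells also lay wholly above control in late RMA-KR. T cell genes summed to 416 to 506 against 342 to 414 CPM and B cell genes to 430 to 607 against 245 to 427 CPM. Macrophage and monocyte genes summed to 44.2 to 79.1 against 8.74 to 18.7 CPM and dendritic cell genes to 794 to 900 against 391 to 669 CPM. Trbc1 led the T cell list, Ighm the B cell list, Cd68 the macrophage and monocyte list and Itgax the dendritic cell list. Over the 24 libraries Ighm had a median of 331 CPM beside 342 for its list, and Itgax 699 beside 722. A higher sum here can thus rest on 1 gene and does not count cells. Granulocyte, red blood cell and type 1 innate lymphoid sums overlapped control. Their part in the Sh2d2a and Map4k1 values was not tested.

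Orai2, a calcium channel subunit, stood at 101, 124, 106 and 119 CPM in control, 47.5, 53.7 and 53.9 CPM in intermediate RMA and 32.1, 59.3 and 56.5 CPM in late RMA. It fell by 1.12 log2 in intermediate RMA (SE 0.29, adjusted p 0.0405, 3 of 3 below the control mean) and by 1.19 in late RMA (SE 0.29, adjusted p 0.0257, 3 of 3 below). Of 15 other settings 5 called the former (adjusted p 0.00224 to 0.217), and 9 the latter (adjusted p 0.00282 to 0.263). Leaving out any 1 of the 7 libraries lost the former call, at -1.20 to -1.03 log2 (adjusted p 0.0676 to 0.217). The latter was lost without control 2, at -1.16 log2 (adjusted p 0.0616), control 4, at -1.19 log2 (adjusted p 0.0664), late RMA 1, at -0.92 log2 (adjusted p 0.263), or late RMA 2, at -1.32 log2 (adjusted p 0.0764). Without the 4 libraries that stood apart both calls were lost, at -1.08 log2 (adjusted p 0.124) in intermediate and -1.15 log2 (adjusted p 0.0911) in late RMA, as they were with the replicate number as a block, at -1.10 log2 (adjusted p 0.103) and -1.16 log2 (adjusted p 0.0814). With no filter on low counts the former was lost, at -1.11 log2 (adjusted p 0.0619).

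Nfatc2, a transcription factor that calcium signaling activates, stood at 48.4, 63.9, 66.3 and 77.8 CPM in control, 40.4, 64.0 and 73.1 CPM in early RMA and 25.1, 27.6 and 28.2 CPM in late RMA. It fell by 1.25 log2 in late RMA against control (SE 0.30, adjusted p 0.0211, 3 of 3 below) and by 1.13 against early RMA (SE 0.31, adjusted p 0.0490, 3 of 3 below), called in 9 of 15 and 6 of 14 settings (adjusted p 0.000745 to 0.166 and 0.00380 to 0.257). The former call was lost without control 4, at -1.17 log2 (adjusted p 0.0652), late RMA 1, at -1.17 log2 (adjusted p 0.166), late RMA 2, at -1.24 log2 (adjusted p 0.124), or late RMA 3, at -1.24 log2 (adjusted p 0.0607), and the latter without any 1 of the 6 libraries compared, at -1.34 to -0.96 log2 (adjusted p 0.0592 to 0.257). Without the 4 libraries that stood apart the former was also lost, at -1.13 log2 (adjusted p 0.0511), and with no filter both were, at -1.25 log2 (adjusted p 0.0867) and -1.11 log2 (adjusted p 0.205). The latter was lost with only the groups compared, at -1.17 log2 (adjusted p 0.176). Skap1, an adaptor tied to integrin activation, stood at 228, 256 and 303 CPM in early RMA and 437, 408 and 422 CPM in late RMA, and it rose by 0.69 log2 (SE 0.15, adjusted p 0.0159, 3 of 3 above), called in 8 of 14 settings (adjusted p 0.00166 to 0.147). That call was lost without early RMA 1, at 0.60 log2 (adjusted p 0.130), early RMA 2, at 0.67 log2 (adjusted p 0.0641), late RMA 1, at 0.72 log2 (adjusted p 0.0613), or late RMA 2, at 0.71 log2 (adjusted p 0.0752), as it was with no filter, at 0.72 log2 (adjusted p 0.129), and with only the groups compared, at 0.65 log2 (adjusted p 0.147).

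The genes below were not called by edgeR in these comparisons, while DESeq2 called Sh2d1b2 in both, Yes1 in late RMA and Nfkb1 in late RMA-KR. In late RMA against control Crk was the lowest adaptor, at -1.02 log2 (SE 0.49, adjusted p 0.356), and in late RMA-KR Grb2, at -0.92 (SE 0.36, adjusted p 0.282). The highest adaptor in both was Sh2d1b2, an adaptor of SLAM-family receptors, at 8.15 CPM in late RMA and 5.84 CPM in late RMA-KR against 0.0462 CPM in control. Among kinases Yes1 was the lowest in both, at 0.0971 and 0.367 CPM against 2.77 CPM in control, and Btk the highest in late RMA-KR, at 2.92 CPM. Of the GTPase and actin genes Vav2 and Vav3, relatives of Vav1, were the highest and lowest in late RMA, at 1.55 and -1.05 log2 (adjusted p 0.491 and 0.565), and Sos2 and Sos1 in late RMA-KR, at 0.53 and -1.28 (adjusted p 0.664 and 0.360). The highest of the calcium, MAPK and NF-kB genes in both was Nfkb1, at 0.91 log2 in late RMA (SE 0.31, adjusted p 0.133) and 1.09 in late RMA-KR (SE 0.31, adjusted p 0.0956).

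Lists of other cells were summed in each library as a check on the sort. Between 218 and 607 CPM fell to the 12 B cell genes, most of it to Ighm, at 213 to 483 CPM. The 12 macrophage and monocyte genes summed to 7.34 to 79.1 CPM, the 10 granulocyte genes to 0 to 17.2 CPM and the 7 red blood cell genes to 0 to 3.83 CPM, where Ngp and Alas2 were the most abundant, at most 4.84 and 3.57 CPM. The 7 dendritic cell genes summed to 391 to 1139 CPM, nearly all Itgax, at 377 to 1075 CPM, while Siglech and Clec9a were at 0 in 15 and 18 libraries. The 6 type 1 innate lymphoid genes summed to 11.7 to 311 CPM, with Il7r the most abundant at up to 133 CPM, and Junb led the immediate early and stress genes at 495 to 3421 CPM.

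**Figure D5:**
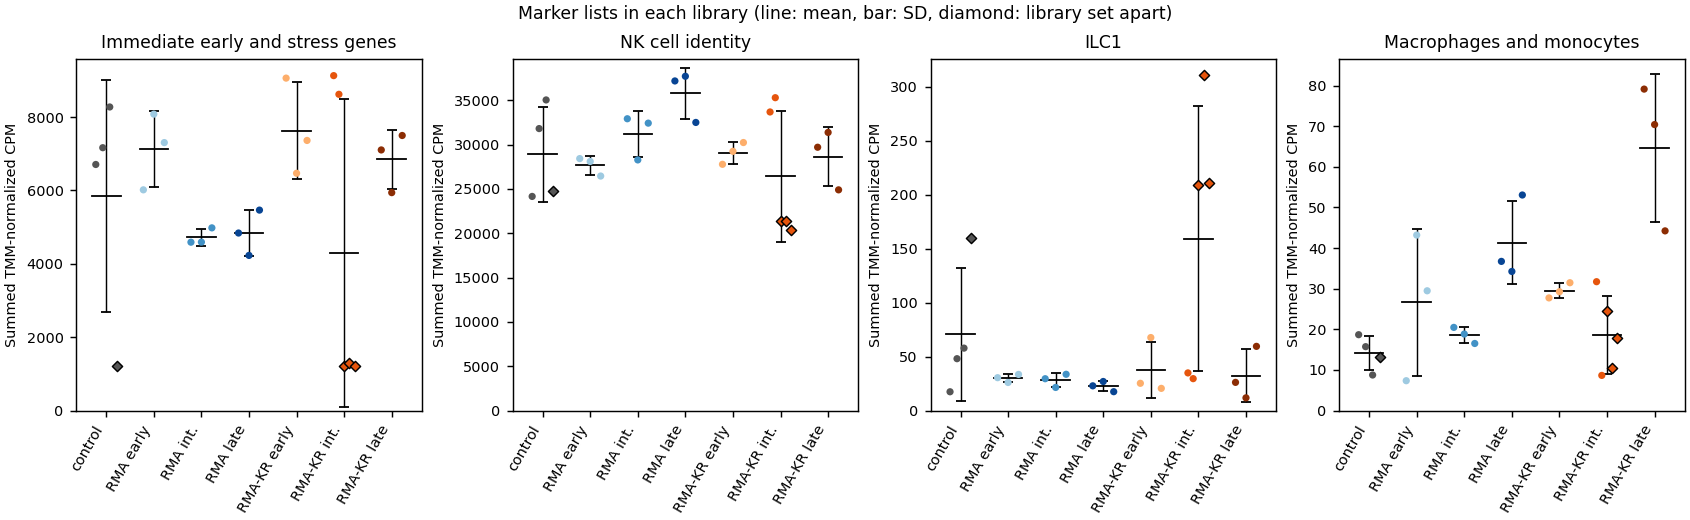
Summed CPM of immediate early and stress genes, NK cell identity genes, type 1 innate lymphoid (ILC1) genes and macrophage and monocyte genes in each library (points) by group, with mean (line) and SD (bar), where diamonds are the 4 libraries that stood apart. These 4 lie below all others in immediate early and stress genes and above all others in type 1 innate lymphoid genes.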

How the data were processed

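Bulk RNA-seq of sorted spleen NK cells was read from the deposited table, in which the authors give raw counts for 24 libraries. Per the labels, the authors trimmed reads with cutadapt 1.10, removed ribosomal reads with Bowtie2 2.2.8, aligned to mm10 with STAR 2.5.3a and counted with HTSeq 0.6.1p1. The table's other per-library columns, 48 in all, and its 28 comparison columns (the authors' fold changes and p-values) were left out. Genes were filtered with filterByExpr on the 7 groups (17097 of 45237 kept) and scaled by TMM. All 24 libraries were fitted in edgeR 4.0.16 (R 4.3.3; robust quasi-likelihood, 1 mean per group, Benjamini-Hochberg over all genes tested, called at an adjusted p under 0.05). Fold changes are log2. DESeq2 1.42.0, its size factors and prior, other filters, a 2-fold threshold, the replicate number as a block, fits of only the groups compared, other pseudocounts, and each library left out were tried as alternatives. Ratios (pseudocount 1) were compared by 2-sided exact permutation tests. Tables and figures used Python 3.11.15, pandas 2.3.3, numpy 2.4.6 and matplotlib 3.10.9.

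Genes named beside the members are the called genes of the pathway and Fc receptor lists, their highest and lowest in the late comparisons with control, the most abundant marker genes, the called genes of the T cell and NK cell identity lists from early to late RMA, and the genes most alike by Pearson r of log2 CPM (prior count 2), 5 for Ncr1 and 2 for each other member. The members and lists were chosen with earlier results of these data known. The 4 libraries set apart, the motifs and the promoters printed were chosen after their values were seen. No pair of libraries of a group were copies of each other (31 pairs checked). Library totals of 5138651 to 14863500 reads limit precision for genes with few reads. The biological coefficient of variation common to all genes was 0.852.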

Additional observations from a re-analysis of the deposited data

Results flagged for a closer look

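A gap rule asked, for each member and each ratio in the groups of 4 and 5 libraries, whether the highest or lowest library lay far from the rest of its group. Of 26 groups of values looked at, 2 met it, and chance alone flags about 1 in 20. Zap70 in control 4 stood at 304 CPM (303.558), above the other 3 control libraries, of which the nearest stood at 261 and the farthest at 253 CPM. Vav1 in RMA-KR intermediate 2 stood at 627 CPM (626.546), above the other 4 libraries of that group, from 345 to 414 CPM. Control 4 is also 1 of the 4 libraries that stood apart, and RMA-KR intermediate 2 is not. What set either value apart was not tested.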

How the results depend on the processing

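No called fold change of a member changed sign under any alternative. In 9 of the 12 comparisons the number of members called was the same under every alternative, and the rest moved as follows. In late RMA against control it was 1, Zap70, in place of 0 with at least 10 counts in every library, with only the groups compared, with DESeq2 defaults and with DESeq2 and its prior, and ran from 0 to 1 with a library left out (1 without late RMA 3). In late RMA-KR against control it was 1 with no filter (Ncr1), with at least 10 counts, with DESeq2 defaults and with its prior (Zap70), and from 0 to 1 with a library left out (1 without late RMA-KR 3). In late RMA against early RMA it was 0 in place of 1 with no filter, with only the groups compared and with the added 2-fold threshold, and from 0 to 1 with a library left out. With only the groups compared fewer libraries estimate the spread. Otherwise the cause was not tested.

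Replicate numbers do not pair the groups: over genes, profiles of libraries with the same number in different groups had a median r of -0.00711 (-0.118 to 0.202, 64 pairs) after group means were removed. With the replicate number as a replicate block, Zap70 stood at 0.79 log2 from early to late RMA (adjusted p 0.0210, 3 of 3 libraries above; 0.00394 to 0.174 over its alternatives). Plcg1 in late RMA against control, at -0.13, changed sign with the replicate block (0.0278) and without the 4 libraries that stood apart, chosen after seeing the data (0.36).

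With each library left out, 68 of 760 log2 fold changes of members changed sign. Those that crossed 0 include, all against control, Ncr1 in late RMA, from -0.16 to 0.12, and Cd247 in late RMA-KR, from -0.35 to 0.10. Of the highest and lowest of each member against control, and those with an unadjusted p under 0.05, they ran, for Plcg1 in late RMA, from -2.09 to 0.38, for Fcgr3 in late RMA-KR from -0.16 to 0.71, for Lcp2 in early RMA from -0.31 to 0.00679, for Ncr1 in intermediate RMA-KR from -0.00501 to 0.10 and for Vav1 in intermediate RMA from -0.00701 to 0.12, all against control. The difference in the ratio of Fcer1g to Cd247 ran from -0.17 to 0.0229 in late RMA and -0.40 to 0.0754 in late RMA-KR against control, and from -0.32 to 0.15 in late RMA-KR against late RMA. That of Plcg2 to Plcg1 ran from -0.0375 to 1.75 in early RMA-KR and -0.0640 to 1.38 in late RMA against control, from -1.499 to 0.29 in early RMA-KR against early RMA and from -0.12 to 1.33 in late RMA-KR against late RMA. With a pseudocount of 5 in place of 1, differences of Plcg2 to Plcg1 against control moved by more than the larger SD of their groups in early RMA, from 1.46 to 0.61, intermediate RMA, from 2.201 to 1.06, and late RMA-KR, from 1.26 to 0.41. No other ratio moved so far with a pseudocount of 5, and none with 0.5.

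Over all genes, DESeq2 defaults called more than edgeR in each of the 12 comparisons: 955 in place of 401 in intermediate RMA, 1054 in place of 455 in late RMA and 663 in place of 208 in late RMA-KR against control, and 1362 in place of 491 from early to late RMA. In late RMA-KR against late RMA they called 67 in place of 0, and 159 in place of 0 for the difference between the models. With no filter these last counts were 37 and 119. With only the groups compared, 1246 were called in intermediate RMA, 811 in late RMA and 1 from early to late RMA. Leaving out a library gave 191 to 277 in intermediate RMA, 143 to 581 in late RMA, 82 to 181 in late RMA-KR and 92 to 653 from early to late RMA. In early RMA against control it gave 88 in place of 0 without early RMA 3. In early RMA-KR against early RMA it gave 8 to 198 in place of 58. Scaling by DESeq2 size factors in edgeR moved the median of all genes by under 0.1 log2 in each comparison.

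Groups of 3 to 5 libraries limit the size of a change that can pass a test over 17097 genes, and none of the members' differences that failed it is shown to be absent. Plcg1, with 0 to 128 reads a library and the widest spread between libraries of the members, is too low and too variable for its values to be read. The smallest p of 4 against 3 libraries, 0.0286, is 1 in 35, where the plan of tests had given 2 in 35.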
